A study of Mus musculus with 10 samples.

Results

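The nuclear genes of respiratory complex I were followed in mouse skeletal muscle that overexpressed the zinc finger gene Zfp407. Members were the protein-coding genes whose symbol begins with Nduf. There were 45 such genes among the 15883 genes of the count table, and all 45 passed the filter on low counts that left 13338 genes for testing. The symbols cover 36 subunits that can be placed in the structure of the complex and 7 assembly factors. The other 2 carry the prefix only: Ndufa4, which is now counted as a subunit of complex IV, and its paralog Ndufa4l2. The subunit Ndufb1 and the assembly factor Ndufaf8 belong to the same families and were not analysed here.

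The tissue was the biceps femoris of the hindlimb, and total RNA was sequenced. One group was 5 wild-type mice and the other 5 mice that carried a Zfp407 transgene. All were C57BL/6J males aged 5 weeks, kept on normal chow and fasted for 16 hours before collection. The promoter and the tissues that drive the transgene and the number of founder lines are not given in the sources available here. The column names of the table give the group but not the mouse, so libraries are named by group and column number.

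Complex I is the NADH dehydrogenase of the inner mitochondrial membrane. It passes electrons from NADH through a flavin and a chain of iron-sulphur clusters to ubiquinone and pumps protons as it does so. A peripheral arm holds the N module, which oxidises NADH, and the Q module, which reduces ubiquinone. A membrane arm with proximal and distal parts holds the proton pumps. The pump proteins are encoded by mitochondrial DNA, and the Nduf genes encode the other catalytic subunits and a shell of accessory subunits. Assembly factors join the parts and then leave, and skeletal muscle, which relies on respiration, carries large amounts of the complex.

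Of the 45 members, 2 changed, Ndufa1 and Ndufa13, and both fell. The threshold was an adjusted p of 0.05 in edgeR's quasi-likelihood test, which 5.33% of all genes tested passed. Both encode accessory subunits of the proximal membrane arm that are needed for the complex to form, and Ndufa13 is also known as GRIM-19, a regulator of cell death. Coding sequence is printed here because it defines the proteins concerned, whole for Ndufa1 and, for Ndufa13, the 245 bases of exons 2 to 4. The letters were read from the principal transcripts of GENCODE release M21 (build GRCm38), 5′ to 3′, without the stop codon and from the start codon on. Capitals mark the exons of even number, so that each change of case is a junction between exons.
Ndufa1: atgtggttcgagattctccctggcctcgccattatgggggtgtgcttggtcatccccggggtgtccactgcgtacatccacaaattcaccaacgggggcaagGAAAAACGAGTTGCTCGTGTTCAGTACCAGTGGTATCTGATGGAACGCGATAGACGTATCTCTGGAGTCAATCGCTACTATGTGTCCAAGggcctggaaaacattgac
Ndufa13: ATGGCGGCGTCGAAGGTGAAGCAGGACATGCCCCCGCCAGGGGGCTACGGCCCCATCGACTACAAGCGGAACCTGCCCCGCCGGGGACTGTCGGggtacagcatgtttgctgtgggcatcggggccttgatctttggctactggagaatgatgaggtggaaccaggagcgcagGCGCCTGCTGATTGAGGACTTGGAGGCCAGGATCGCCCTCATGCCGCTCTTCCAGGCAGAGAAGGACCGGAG
Ndufa1 has 70 codons in a transcript of 419 bases and 3 exons. It lies on the minus strand of chromosome X from 37187588 to 37191163. Ndufa13 has 144 codons in a transcript of 1251 bases and 5 exons, the first of which holds no coding bases. It lies on the minus strand of chromosome 8 from 69894180 to 69902558.

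Several features of the libraries bear on every value below. CPM here means counts per TMM-scaled library size, a scaling that sets the bulk of genes equal between libraries. Total counts ran from 13530367 to 19047834. Zfp407 was higher in each transgenic library than in any wild-type library, at 22.9 ± 1.73 CPM in wild type against 489 ± 124 CPM with the transgene (SD, n = 5 each). Skeletal muscle markers took 6.08% to 9.58% of counts in wild type and 7.13% to 10.7% in the transgenic group. The summed share of 12 hepatocyte markers was 0.01% to 0.0193% in wild type and 0.0432% to 0.547% in the transgenic group, and 11 of the 12 rose. None of the 12 was at 0 in any library, and Alb, the albumin gene, ran from 41.4 to 116 CPM in wild type and from 197 to 3038 CPM in the transgenic group. Slow fibre genes took 0.00959% to 0.123% and 0.0233% to 0.0850% of counts, and leukocyte markers 0.00734% to 0.0129% and 0.0105% to 0.0308%. Transgenic library 3 stood apart from its group in a way that followed the GC content of transcripts. It also held the highest share of skeletal muscle markers, 10.7%, and the highest summed CPM of the nuclear genes of complexes III, IV and V. For complex V the sum was 6420 CPM, beside 4223 to 4776 CPM in the other transgenic libraries. Whether these features are linked was not tested.

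Across the table, 711 of 13338 genes were called, 140 lower (1.05%) and 571 higher (4.28%). The 2 called among 45 members were a share close to the 5.33% of all genes called in either direction. Both were lower, where the background was 1.05%, and none was higher, where it was 4.28%. At an unadjusted p below 0.05, 8 members passed, 4 in each direction, while 18.1% of all genes tested did. Wild-type and transgenic libraries did not overlap in 3 members, against 8.04% of all genes. The median log2 fold change of the members was 0.06, beside 0.003 for all genes tested, and the members ran from -1.97 to 0.52. The sign of that median rested on single libraries: it was -0.04 without transgenic library 3 (all genes -0.004) and -0.008 without wild-type library 2 (all genes -0.03). For 35 of the 45 members the 95% interval of the change lay within 1.5-fold in either direction.

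**Figure D1:**
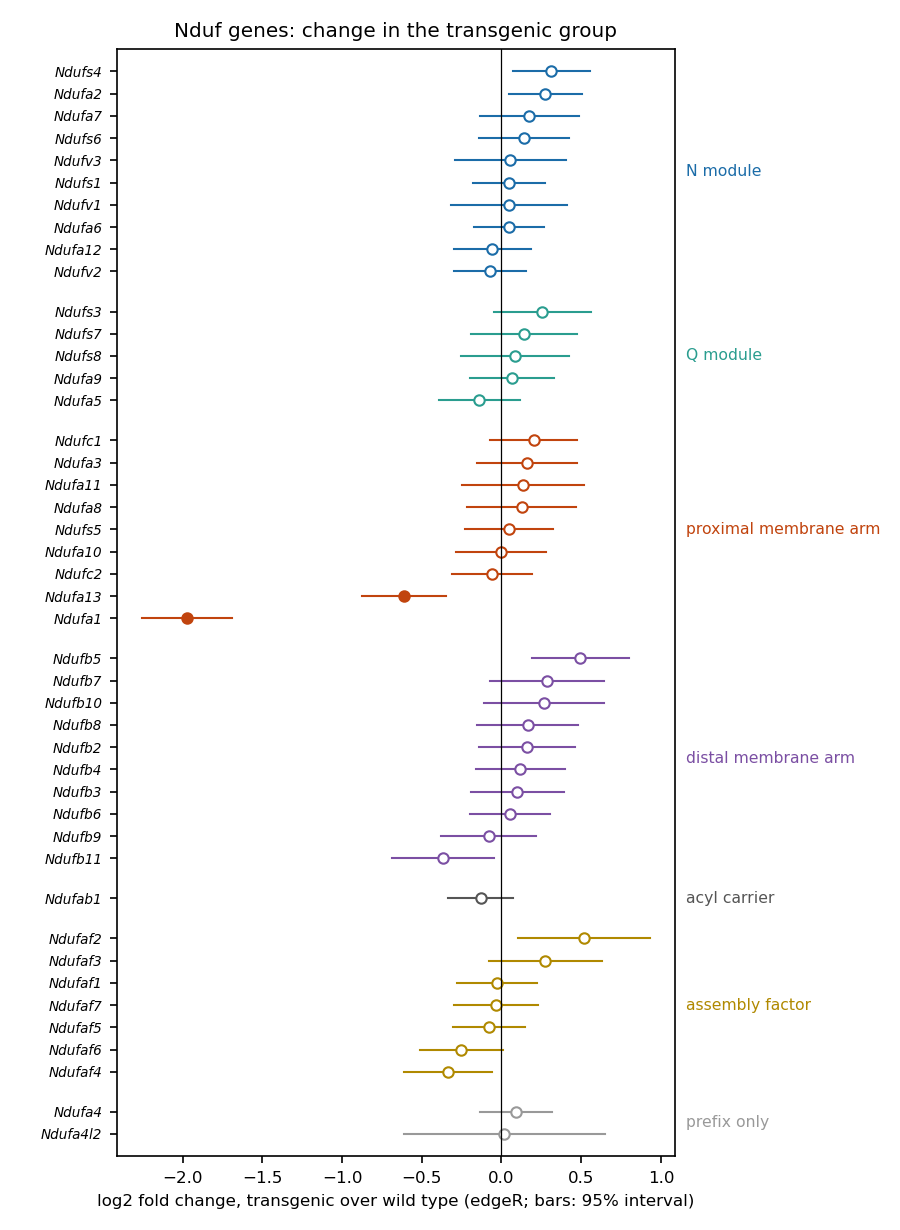
Log2 fold change of 44 of the Nduf genes in the transgenic group over wild type, grouped and coloured by module, with bars for the 95% interval from edgeR. Filled points are the 2 genes past an adjusted p of 0.05, Ndufa1 at -1.97 and Ndufa13 at -0.61. The other 42 lie between -0.37 and 0.52.

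Ndufa1 showed the lowest log2 fold change of any member. In wild-type libraries 1 to 5 it stood at 46.5, 37.9, 42.3, 45.3 and 35.5 CPM, and in transgenic libraries 1 to 5 at 11.2, 11.5, 12.4, 8.93 and 8.88 CPM. The highest transgenic library was far below the lowest wild-type library. The means were 41.5 ± 4.73 and 10.6 ± 1.59 CPM (SD, n = 5 each), a level 3.92-fold lower in transgenic muscle. The log2 fold change was -1.97 ± 0.13 (SE, adjusted p = 3.72e-06 by edgeR). The exact permutation test between the groups, two-sided, gave p = 0.00794, the smallest it can give. In bulk tissue, fewer cells of a type and less RNA per cell cannot be told apart. Leaving out each library in turn kept the log2 fold change between -2.04 and -1.92. With the mean log2 level of the hepatocyte markers as a covariate in edgeR it was -1.63 ± 0.20 (adjusted p = 0.00213), and Ndufa1 was called under all 26 alternatives tried.

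The gene that starts nearest to Ndufa1 is Rnf113a1, which encodes a RING finger protein of the spliceosome. It runs on the opposite strand from 37191245 to 37192467, and the 2 start sites lie 82 bases apart. Rnf113a1 was measured at a low level, 0.709, 0.508, 1.28, 1.24 and 1.16 CPM in wild-type libraries 1 to 5. The transgenic libraries gave 2.17, 1.21, 2.15, 1.70 and 1.80 CPM, and transgenic library 2 overlapped the wild-type range. Its log2 fold change was 0.85 ± 0.27 (SE, adjusted p = 0.101 by edgeR), so the neighbour did not pass the threshold and its value had the opposite sign to that of Ndufa1.

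Ndufa13 was at 121, 98.2, 120, 134 and 106 CPM in wild-type libraries 1 to 5. The transgenic libraries 1 to 5 gave 69.0, 79.0, 93.2, 69.3 and 68.7 CPM. Library 3 was the highest of the transgenic group and still below every wild-type library. The means were 116 ± 14.0 and 75.8 ± 10.6 CPM (SD, n = 5 each), and the log2 fold change was -0.61 ± 0.12 (SE, adjusted p = 0.0113 by edgeR, exact permutation p = 0.00794). This call was lost in edgeR with the hepatocyte covariate, where the SE was wider (-0.44 ± 0.21, adjusted p = 0.423). As that covariate did not overlap between groups, the loss cannot be assigned to hepatocyte transcripts. The call was also lost without transgenic libraries 4 and 5, which held the most hepatocyte transcripts (-0.53, adjusted p = 0.0961). The same held without transgenic libraries 1 and 2, which held the most leukocyte transcripts (-0.60, adjusted p = 0.0562).

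Yjefn3 lies on the same strand and covers the whole span of Ndufa13, with 8379 bases in common when introns are included. Reads may therefore be shared in a way the counting does not resolve. The level of Yjefn3 was 1.31 ± 0.272 CPM in wild type against 0.867 ± 0.220 CPM with the transgene (SD, n = 5 each). The log2 fold change of -0.61 ± 0.24 (SE, adjusted p = 0.204 by edgeR) did not pass. Tssk6 overlaps the start of Ndufa13 by 375 bases on the other strand and was not analysed here. In all, 15 of the 45 members overlap another tested gene, among them Ndufb5 with Mrpl47, Ndufb11 with Rbm10, Ndufa2 with Tmco6 and Ndufaf2 with Smim15. The values of such members are uncertain, since the strand setting of the counting was not found in the labels or headers. Overlap was taken from whole gene spans, and that of exons was not measured.

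**Figure D2:**
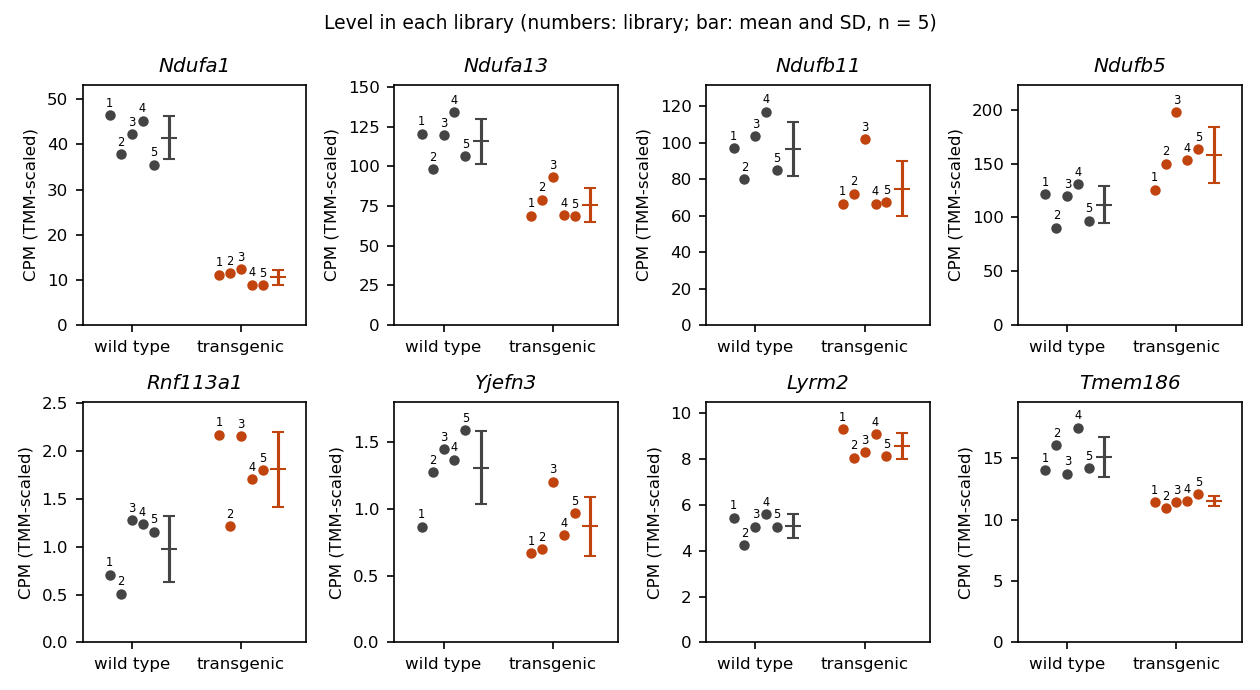
CPM in each library (points, numbered by column) with the mean and SD of each group of 5 (bars), for 4 members, 2 neighbours and 2 other assembly factors. Ndufa1, Ndufa13, Lyrm2 and Tmem186 show no overlap between groups. Transgenic library 3 is the highest transgenic point for Ndufb11, at 102 CPM, and for Ndufb5, at 198 CPM.

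The other 7 genes of the proximal membrane arm were Ndufa3, Ndufa8, Ndufa10, Ndufa11, Ndufc1, Ndufc2 and Ndufs5, all accessory subunits. None was called by edgeR, DESeq2 or in the authors' deposited table, and none had an unadjusted p below 0.05 in edgeR. Their log2 fold changes ran from -0.06 for Ndufc2 to 0.20 for Ndufc1. All 7 of their 95% intervals lay within 1.5-fold in either direction. Summed over the 9 genes, the proximal arm was at 618 ± 59.9 CPM in wild type against 573 ± 97.9 CPM with the transgene (SD, n = 5 each).

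In the distal membrane arm 10 accessory subunit genes were measured. Their median log2 fold change was 0.14, or 0.04 without transgenic library 3, and none was called by edgeR with all libraries. DESeq2 and the authors' deposited table each called 1, Ndufb5. Ndufb5 was at 122, 90.4, 120, 131 and 97.0 CPM in wild-type libraries 1 to 5 and at 126, 150, 198, 153 and 163 CPM in transgenic libraries 1 to 5. Transgenic library 1 lay inside the wild-type range and the other 4 lay above it. The means were 112 ± 17.4 and 158 ± 26.2 CPM (SD, n = 5 each). The log2 fold change was 0.49 ± 0.14 (SE), with an adjusted p of 0.0654 in edgeR, 0.0202 in DESeq2 and 0.0325 in the authors' deposited table. Of the fits that left out a single library, edgeR called it only without transgenic library 1 (0.57, adjusted p = 0.0395). The largest adjusted p of those fits was 0.185, without wild-type library 2 (0.39). With the hepatocyte covariate the value was again 0.49, with a wider SE of 0.25 (edgeR adjusted p = 0.448).

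Ndufb11, the other X-linked gene among the members, had a negative value that did not pass. It was at 96.9, 79.96, 104, 117 and 84.8 CPM in wild-type libraries 1 to 5. The transgenic libraries gave 66.5, 72.0, 102, 66.5 and 67.2 CPM, so 4 were below every wild-type library and library 3 was inside the wild-type range. The log2 fold change was -0.37 ± 0.15 (SE, adjusted p = 0.202 by edgeR). Without transgenic library 3 it was -0.50 and was called (edgeR adjusted p = 0.0171). With an offset for the GC content of transcripts and all libraries it was not called (-0.41, edgeR adjusted p = 0.0599). With that offset and without transgenic library 3 it was called (-0.49, edgeR adjusted p = 0.0219). With the hepatocyte covariate it was -0.15 with a wider SE of 0.25 (edgeR adjusted p = 0.822). The remaining 8 genes, Ndufb2 to Ndufb4, Ndufb6 to Ndufb10, ran from -0.08 for Ndufb9 to 0.28 for Ndufb7.

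The N module had 10 members, 8 of them with a positive value. None was called by edgeR, DESeq2 or in the authors' deposited table. At an unadjusted edgeR p below 0.05, 2 passed, Ndufs4 and Ndufa2, while 18.1% of all genes tested did. Ndufs4, which is added late in assembly and steadies the module on the arm, was at 96.2, 76.2, 87.2, 92.5 and 80.4 CPM in wild-type libraries 1 to 5. In transgenic libraries 1 to 5 it was at 89.7, 118, 102, 108 and 120 CPM. Only transgenic library 1 lay inside the wild-type range. The log2 fold change was 0.31 ± 0.11 (SE, adjusted p = 0.143 by edgeR).

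Ndufa2, an accessory subunit with a thioredoxin-like fold, was at 49.9, 44.9, 47.8, 53.4 and 43.4 CPM in wild-type libraries 1 to 5. The transgenic libraries gave 52.8, 51.8, 67.2, 56.9 and 60.9 CPM. Transgenic libraries 1 and 2 lay inside the wild-type range and the other 3 above it. The log2 fold change was 0.27 ± 0.11 (SE, adjusted p = 0.182 by edgeR). The other N module genes ran from -0.07 for Ndufv2 to 0.18 for Ndufa7.

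Nuclear-encoded subunits that carry out catalysis are described next. None of those named here was called by edgeR, DESeq2 or in the authors' deposited table, and none had an unadjusted p below 0.05 in edgeR. Their 95% intervals all lay within 1.5-fold. Ndufv1, which binds NADH and the flavin, was at 154 ± 11.5 CPM in wild type against 159 ± 48.3 CPM with the transgene, with a log2 fold change of 0.05 ± 0.17 (SE). Ndufv2, which holds an iron-sulphur cluster beside it, was at 164 ± 17.4 and 156 ± 9.66 CPM (-0.07 ± 0.10). Ndufs1, which carries several clusters, was at 312 ± 28.2 and 322 ± 22.5 CPM (0.05 ± 0.10). In the Q module Ndufs7, which holds the cluster next to the ubiquinone site, was at 75.9 ± 6.74 and 83.8 ± 21.5 CPM (0.14 ± 0.15). Ndufs3, part of the core fold of that arm, was at 76.5 ± 8.49 and 91.4 ± 19.4 CPM (0.26 ± 0.14). Ndufs8, which holds clusters that lead to the quinone site, was at 53.2 ± 3.97 and 56.5 ± 15.5 CPM (0.08 ± 0.16). Each level is a mean with its SD over 5 libraries and each change carries its SE. For Ndufv1, Ndufs3, Ndufs7 and Ndufs8 the spread of the transgenic group was wider than that of wild type, and the highest library was transgenic library 3.

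The remaining Q module genes were accessory. The change of Ndufa9 was 0.06 ± 0.12 and that of Ndufa5 was -0.14 ± 0.12 (log2, SE), and neither passed in edgeR (adjusted p = 0.847 and 0.601). Ndufa5 was unlike its module in 1 respect: transgenic library 3 was its lowest, at 49.9 CPM, while the other transgenic libraries ran from 63.7 to 68.3 CPM. Ndufab1, the mitochondrial acyl carrier protein that sits in both arms, was at 52.2 ± 4.27 CPM in wild type against 47.7 ± 2.74 CPM with the transgene (SD, n = 5 each), a log2 fold change of -0.13 ± 0.10 (SE, adjusted p = 0.531 by edgeR).

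Of the 7 assembly factors with the Nduf prefix, none was called by edgeR, DESeq2 or in the authors' deposited table. At an unadjusted edgeR p below 0.05, 2 passed, while 18.1% of all genes tested did. The median log2 fold change of the 7 was -0.03. Ndufaf2, a placeholder for Ndufa12 during assembly, was at 3.07, 2.03, 2.997, 3.90 and 2.45 CPM in wild-type libraries 1 to 5. The transgenic libraries gave 3.50, 4.94, 3.73, 4.54 and 4.05 CPM, of which 3 lay above every wild-type library. Its log2 fold change was the highest of all members, 0.52 ± 0.19 (SE, adjusted p = 0.157 by edgeR), on 24 to 106 counts per library.

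Ndufaf4, an early factor that works with Ndufaf3 on the Q module, was at 25.4, 22.6, 22.8, 27.3 and 22.2 CPM in wild-type libraries 1 to 5. In transgenic libraries 1 to 5 it was at 17.5, 20.02, 14.4, 21.6 and 21.9 CPM. The groups did not overlap, but the gap between 21.9 and 22.2 CPM was small and the log2 fold change of -0.33 ± 0.13 (SE, adjusted p = 0.175 by edgeR, exact permutation p = 0.00794) did not pass.

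The other 5 factors overlapped between groups. Ndufaf1, which acts on the membrane arm, was at 24.7 ± 3.28 CPM in wild type against 24.2 ± 2.32 CPM with the transgene. Ndufaf3 was at 5.10 ± 0.823 and 6.20 ± 1.17 CPM. Ndufaf5, which hydroxylates an arginine of Ndufs7, was at 19.0 ± 2.07 and 18.1 ± 1.33 CPM. Ndufaf6 was at 9.96 ± 0.879 and 8.37 ± 1.06 CPM, and Ndufaf7, a methyltransferase, at 9.03 ± 1.24 and 8.83 ± 0.717 CPM (SD, n = 5 each throughout). Their log2 fold changes ran from -0.25 for Ndufaf6 to 0.27 for Ndufaf3.

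Ndufa4 was at 190 ± 13.7 CPM in wild type against 202 ± 19.2 CPM with the transgene (SD, n = 5 each), a log2 fold change of 0.09 ± 0.10 (SE, adjusted p = 0.717 by edgeR). Ndufa4l2, known as a gene induced by low oxygen, was at 3.01 ± 0.650 and 3.09 ± 1.56 CPM (0.02 ± 0.29 SE; edgeR adjusted p = 0.986). Its interval, from -0.61 to 0.65 on the log2 scale, allows a change of over 1.5-fold in either direction.

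Members differed widely in level. Per kilobase of the principal transcript and averaged over both groups, levels were highest for Ndufa4 at 321 and Ndufb9 at 262 CPM per kb. The lowest levels were those of Ndufa4l2 at 3.26, Ndufaf3 at 3.80 and Ndufaf7 at 5.11 CPM per kb. The 7 assembly factors ranked between 36 and 44 of the 45 members on this scale. Among the placed subunits, Ndufab1 and Ndufb2 had ranks of 38 and 39, with long principal transcripts of 3.48 and 4.37 kb, and the other 34 ranked above every assembly factor. Ndufa1 stood at 99.1 CPM per kb in wild type and 25.2 CPM per kb in the transgenic group, and Ndufa13 at 92.6 and 60.6 CPM per kb.

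Summed over the 36 placed subunits, complex I transcripts were at 3258 ± 296 CPM in wild type against 3345 ± 513 CPM with the transgene (SD, n = 5 each), a ratio of 1.03. Wild-type libraries ran from 2864 to 3637 CPM. The transgenic libraries other than library 3 ran from 2956 to 3330 CPM, inside the wild-type range, and library 3 was at 4228 CPM. Without it the ratio was 0.959. Scaled to the raw total alone, with no TMM factor, the sums in CPM were 2499 to 3376 in wild type and 3389 to 4406 in the transgenic group, and the ratio was 1.22. The rows Lars2, Gm15564 and Gm15662 enter that raw total. Together they made up 33.9%, 29.3%, 19.9%, 18.2% and 14.3% of it for wild-type libraries 1 to 5. For transgenic libraries 1 to 5 the figures were 13.8%, 13.6%, 17.3%, 9.62% and 16.8%. A larger share of these rows lowers every other gene on this scale, so the 1.22 is not a like-for-like comparison. How much of it these rows account for was not tested.

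**Figure D3:**
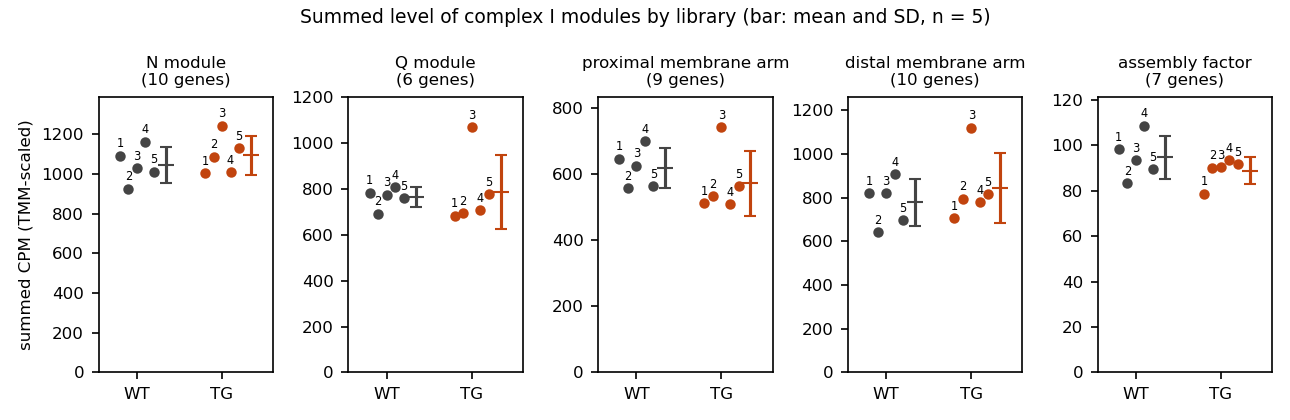
Summed CPM of the genes of each module in each library (points, numbered by column; WT wild type, TG transgenic), with the mean and SD of each group of 5. Transgenic library 3 is the highest point in the 4 structural modules, at 1069 CPM in the Q module and 1121 CPM in the distal arm. It is not the highest for the assembly factors.

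The same few libraries were the highest or the lowest of their group for many members. In wild type, library 4 was the highest of its group in 31 of the 45 members and library 2 the lowest in 31. In the transgenic group, library 3 was the highest in 36 members and library 1 the lowest in 25. Library 3 was the lowest of its group in 3 members, Ndufa5, Ndufaf4 and Ndufs1. The sign of a member's value could rest on 1 library: 29 members had a positive log2 fold change with all 10 libraries, 19 without transgenic library 3 and 21 without wild-type library 2. Across the other scalings, tools and filters, from 28 to 30 were positive.

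**Figure D4:**
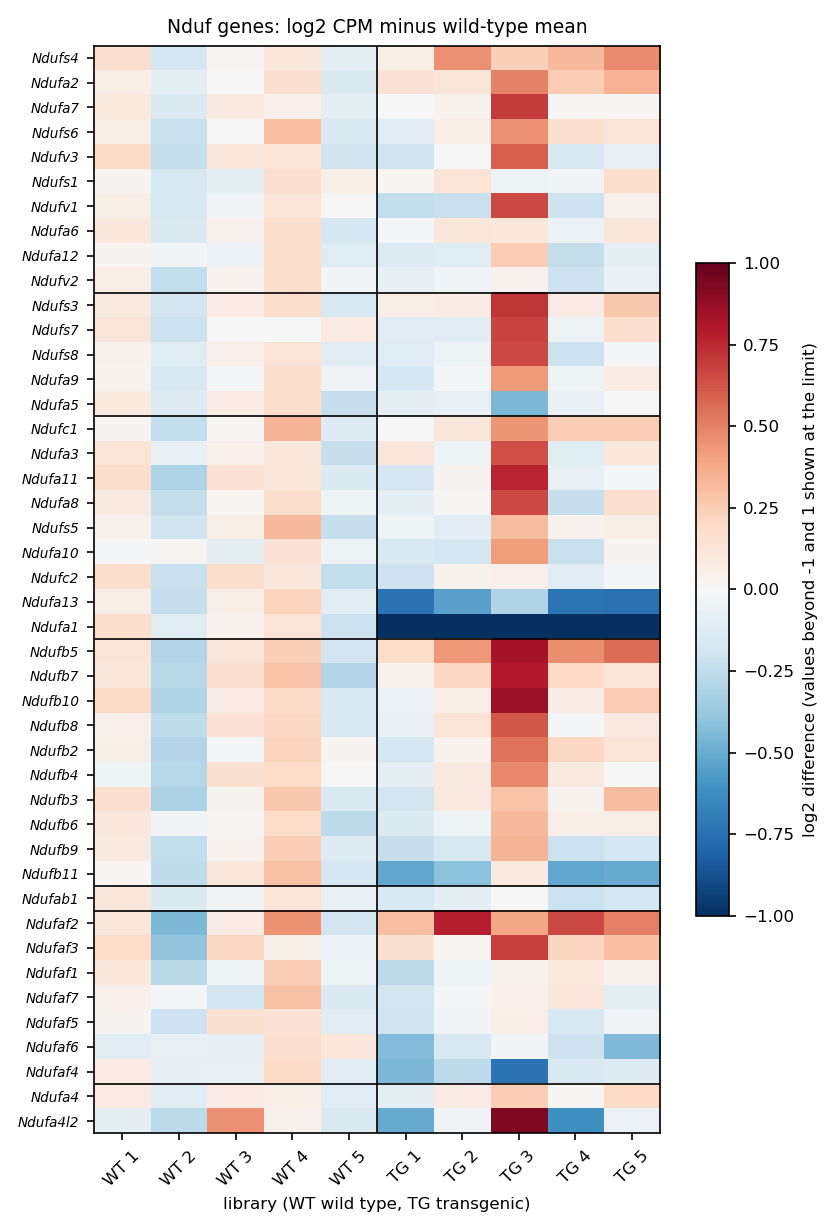
Log2 CPM of 44 Nduf genes (lines, by module) in each library (columns) minus the wild-type mean of that gene, with red for higher and blue for lower values. Ndufa1 and Ndufa13 are blue in all 5 transgenic libraries. Transgenic library 3 is the reddest column, and Ndufa5 and Ndufaf4 are blue in it.

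The departure of transgenic library 3 followed the GC content of the transcripts. Across the 45 members, the log2 level in library 3 minus the mean of the other transgenic libraries had r = 0.732 (Spearman rho = 0.757) with transcript GC. Over 13308 genes it was r = 0.646. These are correlations across genes of a single library, which share its preparation and depth, and genes are not independent replicates. In the same measure the other 9 libraries had r between -0.36 and 0.06 over all genes. Over the members their r ran from -0.57 in transgenic library 4 to 0.43 in wild-type library 3. Each library was set against the others of its group, so library 3 is part of the reference for the other transgenic libraries. The 15 members of lowest GC had a median difference of 0.16 on the log2 scale, with 11 above 0. The 15 of highest GC had a median of 0.70, or 1.62-fold, with all 15 above 0. The transcript of Ndufa13 has 60.4% GC and that of Ndufa1 47.5% GC. Both genes were called with and without library 3. The part of GC content in either change was not tested.

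**Figure D5:**
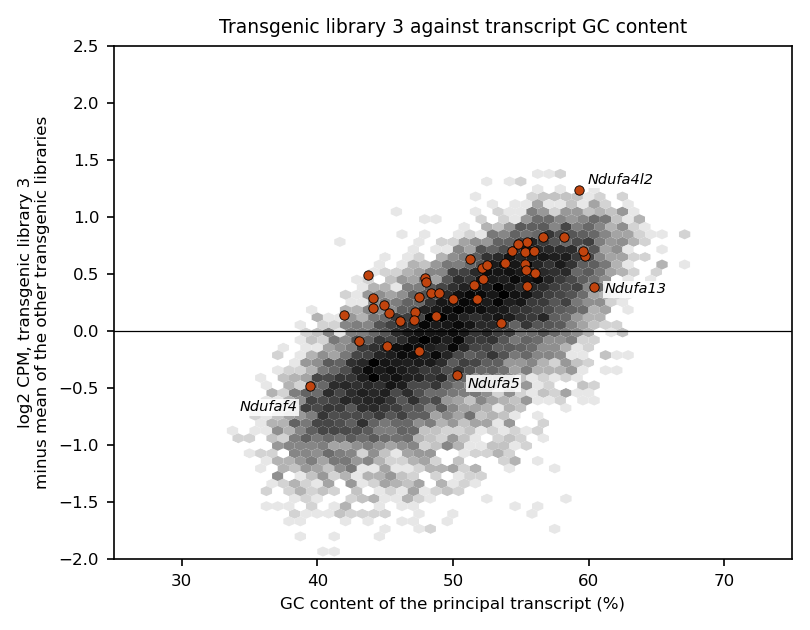
Log2 CPM in transgenic library 3 minus the mean of the other transgenic libraries, against the GC content of the principal transcript in percent. Orange points are 44 of the Nduf genes, and grey cells are the genes outside the family, darker where more genes fall. Member values climb with GC, from -0.49 for Ndufaf4 to 1.23 for Ndufa4l2.

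Promoters of genes for respiratory chain proteins are known to carry sites for NRF1, YY1, ETS-family, ERR and SP factors. RefSeq promoter windows of 300 bases around the start site (GRCm38.p6) matched 39 of the 45 members by symbol. Both strands were searched, matches of different motifs could overlap, and shares are given beside those of all 32851 windows. For each member only the first window listed under its symbol was used, while the 32851 are all windows listed. The sets are therefore not alike, and the shares were not tested against each other. The NRF1 palindrome, spelled by the capitals printed below, was in 3 member windows (7.69%, against 0.971% of all windows). YY1 letters GCCATNTT were in 12 (30.8%, against 6.05%), ETS letters CCGGAAG in 5 (12.8%, against 8.86%) and ERR letters AAGGTCA in 3 (7.69%, against 4.72%). SP letters GGGCGG were in 20 (51.3%, against 35.7%) and NFY letters CCAAT in 13 (33.3%, against 37.4%). Of the called genes, the window of Ndufa1 (chrX:37191189-37191488) held, of these motifs, SP letters only. That of Ndufa13 (chr8:69901971-69902270) held SP and NFY letters. Neither window includes the start of its gene in GENCODE, at 37191163 for Ndufa1 and 69902558 for Ndufa13. The 3 NRF1 matches are shown with 10 bases on each side, to give the sites in their context, with the palindrome in capitals.
Ndufa11, chr17:56717692-56717721: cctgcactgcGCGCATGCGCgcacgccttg
Ndufaf4, chr4:24897960-24897989: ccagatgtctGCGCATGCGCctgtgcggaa
Ndufaf5, chr2:140170652-140170681: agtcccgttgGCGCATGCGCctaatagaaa
All 3 are read on the plus strand. None of these 3 genes passed the test in edgeR, with log2 fold changes of 0.14 ± 0.18 for Ndufa11, -0.33 ± 0.13 for Ndufaf4 and -0.08 ± 0.10 (SE) for Ndufaf5.

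Genes outside the Nduf family complete the complex and the chain. Of 13 tested assembly factors without the prefix, 1 rose and 1 fell in edgeR, and their median log2 fold change was -0.05. Of all genes tested, 4.28% rose and 1.05% fell. Lyrm2, a small protein that takes part in building the N module, was at 5.43, 4.24, 5.05, 5.596 and 5.05 CPM in wild-type libraries 1 to 5 and at 9.29, 8.06, 8.29, 9.07 and 8.11 CPM in transgenic libraries 1 to 5. The groups lay well apart, with a log2 fold change of 0.75 ± 0.12 (SE, adjusted p = 0.00276 by edgeR). With the hepatocyte covariate the value was 0.81 with a wider SE of 0.21, and it was not called (edgeR adjusted p = 0.109). Tmem186, a membrane arm assembly factor, fell from 15.1 ± 1.62 to 11.5 ± 0.409 CPM (SD, n = 5 each). Its log2 fold change was -0.40 ± 0.10 (SE, adjusted p = 0.0362 by edgeR). Leaving out single libraries moved that adjusted p between 0.0240 and 0.0824, while the log2 fold change stayed between -0.47 and -0.37. The call was kept in 3 of these 10 fits, those that left out transgenic library 3 or wild-type libraries 1 or 3.

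Of 54 tested nuclear genes of complexes II to V, 1 was called, while 5.33% of all genes tested were. The median log2 fold change of the 54 was 0.05, or -0.04 without transgenic library 3. The called gene was Atp5l, subunit g of ATP synthase, which fell from 73.7 ± 6.18 to 52.4 ± 5.90 CPM (SD, n = 5 each), a log2 fold change of -0.49 ± 0.11 (SE, adjusted p = 0.0174 by edgeR). With the hepatocyte covariate the value was again -0.49, with a wider SE of 0.20, and the edgeR adjusted p was 0.343. Of the 6 tested mitochondrial genes for complex I subunits, none was called by edgeR, DESeq2 or in the authors' deposited table, none had an unadjusted p below 0.05, and the median log2 fold change was -0.12, or 0.003 without transgenic library 3. The level of mt-Nd1 was 4560 ± 476 CPM in wild type against 5210 ± 892 CPM with the transgene, and that of mt-Nd6, the lowest in change, 457 ± 97.5 and 360 ± 89.7 CPM (SD, n = 5 each).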

How the data were processed

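RNA-seq reads were aligned and counted by the authors. The tools, per the submitters' processing notes, were Bowtie2 2.2.6 and TopHat2 2.1 with SAMtools 1.2, HTSeq 0.6.1 and DESeq2 1.10, on genome build GRCm38.p4. How strand was treated in counting, and with which annotation release, is not given in the sources available here. The deposited table holds raw counts for 10 libraries, and also the authors' mean signal per gene, their log2 fold change with its error, a score (the Wald statistic) and p-values from the authors. Nothing ties a column to a mouse, so p-values measure the spread between libraries, which the series describes as separate mice.

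The test was edgeR 4.0.16 (glmQLFit, then glmQLFTest, in R 4.3.3) after filterByExpr and TMM scaling, transgenic against wild type without covariates, and p-values were adjusted by Benjamini-Hochberg over all 13338 genes. The SE is the size of the fold change over the root of F. The log2 CPM values used a prior count of 2. Transcript lengths, GC content and coordinates came from GENCODE release M21 (GRCm38). The alternatives were other size factors and filters, DESeq2 1.42.0, the authors' p-values, other thresholds, left-out libraries, marker covariates and, chosen after seeing the data, offsets for GC content.

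Members, modules and marker lists were chosen with earlier results of these data known. Named with values were every called member, the 6 next smallest p, the catalytic subunits, the assembly factors, Ndufa4 and Ndufa4l2, the 3 highest and 3 lowest levels per length, members with 1 library far from its group, and called or adjoining genes outside the family. A gene that the rule takes is not reported here. Depth was 13530367 to 19047834 counts per library. Counting error depends on the counts of each gene and is larger where these are few. Such genes were Ndufaf2 (24 to 106 counts per library), Ndufa4l2 (29 to 91), Rnf113a1 and Yjefn3.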

Additional observations from a re-analysis of the deposited data

Results flagged for a closer look

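In 16 of the 44 members examined for this, transgenic library 3 lay far from the other 4 transgenic libraries, by Dixon's criterion for 5 values (a gap above 0.71 of the range). In all, 88 groups of 5 were tested, of which chance alone would mark about 1 in 20, and no other library was marked. In 15 members the library was high. In the N module it stood at 243 CPM for Ndufv1, 66.4 CPM for Ndufv3, 76.2 CPM for Ndufa7 and 77.7 CPM for Ndufa12. In the Q module it stood at 125 CPM for Ndufs3 and 83.9 CPM for Ndufs8. In the membrane arm it stood at 95.6 CPM for Ndufa3 and 62.8 CPM for Ndufa11, and at 65.4 CPM for Ndufb4, 78.3 CPM for Ndufb7, 169 CPM for Ndufb8, 238 CPM for Ndufb9, 137 CPM for Ndufb10 and 102 CPM for Ndufb11. For Ndufa4l2 it stood at 5.76 CPM. In 1 member, Ndufa5, it was low, at 49.9 CPM. The values rest on a single library and share its preparation, so they are not separate events.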

How the results depend on the processing

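Of 26 alternatives, 24 were planned and 2 were added after seeing the data. Of 1170 results for single members, 1160 kept their call or lack of it and 10 did not. None was called in the other direction. A change of sign in a member without a call was not counted. Ndufa10, for example, was positive in 11 alternatives and negative in 15. The count of called members was 2. It fell to 1 at an adjusted p of 0.01, with transgenic libraries 4 and 5 left out, with transgenic libraries 1 and 2 left out and with the hepatocyte covariate, and leaving out each library in turn gave 2 to 3. For complexes II to V the count of 1 fell to 0 in those 4 fits and with a 1.5-fold limit, was 2 with the GC offset and no transgenic library 3, and ran from 1 to 2 over single libraries left out. For the other assembly factors the count of 2 was 1 at 0.01, with the 1.5-fold limit, with transgenic libraries 4 and 5 or 1 and 2 left out and with the slow fibre covariate, 0 with the hepatocyte covariate, and 1 to 2 over single libraries left out. The causes were not tested, except that those fits have fewer libraries or stricter limits where so named. The hepatocyte covariate did not overlap between the groups. The summed subunit ratio of 1.03 was 1.22 on raw totals and 0.959 to 1.06 over single libraries left out. Over all genes, calls ranged more: 711 became 450 without wild-type library 3, 1116 without transgenic library 3, 1097 with the GC offset as well, 1115 at an adjusted p of 0.10, 1158 in the authors' deposited table and 93 with the hepatocyte covariate, and an adjusted p of 0.01 left 207 higher and 45 lower. The lowest count of a member in any library was 24, for Ndufaf2. No paired analysis was possible because the column numbers are not tied to mice or to the labels. Ranking by the length of all annotated exons, again over both groups, put Ndufaf2 lowest and Ndufb9 highest per length.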
